A study of Mus musculus with 6 samples.

Results

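ATF4 is the transcription factor of the integrated stress response, and the genes described here are Atf4 itself and 9 of its targets: Ddit3, Trib3, Asns, Slc7a11, Chac1, Phgdh, Psat1, Shmt2 and Mthfd2. They were taken by gene symbol from the deposited expression table, and all 10 of 10 listed genes were found among its 24054 gene rows. The rule uses no measured value, but the genes were listed with earlier results of these data known. The table holds lungs of 6 female SCID mice, 3 in each of 2 groups. Every mouse had received extracellular vesicles (EVs), membrane particles shed by cells, through the tail vein, then 500000 rat ELT3 cells intravenously 48 h later, and the lungs were taken 72 h after that. The vesicles, positive for CD9, CD63 and CD81, were shed by E15.5 mouse neural progenitor cultures, either wild type (the group called WT EV here) or lacking Tsc1 (Tsc1-null EV). ELT3 cells serve as a model of lymphangioleiomyomatosis, a lung disease tied to loss of the TSC complex. The genotype label of the samples is thus that of the vesicle donor cells, and the recipients of both groups were SCID mice, which lack mature B and T cells. Their age, and lungs given no vesicles or no ELT3 cells, were not analysed here.

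ATF4 protein is made when translation initiation factor eIF2 is phosphorylated by stress kinases, because short upstream reading frames in its mRNA then let the main frame be translated. The growth kinase mTORC1, which the TSC complex restrains, also raises ATF4 output, and serine synthesis and mitochondrial folate genes are among the targets of that branch. Much of the control of ATF4 is therefore on its protein, which RNA values do not report, while the targets respond in their mRNA. The comparison asks whether the mRNA of this branch in the recipient lung differs with the Tsc1 genotype of the vesicle donor cells.

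The element that ATF4 binds together with C/EBP factors is often written with the core TGATGNAA. It was searched on both strands in the 250 bases before each RefSeq gene start (build GRCm38.p6, 11 windows for the 10 genes), and 3 of the 10 genes held it, against 3.45% of all 32851 windows. In the 150 bases nearest the start 2 of the 10 held it, against 2.23% of windows. The stretches with this core are shown to let the 3 genes be compared, with the matches in capitals, on the strand of the gene. The Asns stretch is chr6:7693214-7693243 on the minus strand, with the core 23 to 16 bases before the RefSeq start, and it lies inside the GENCODE M21 gene, which begins 45 bases further upstream. The Slc7a11 stretch is chr3:50443651-50443680 on the minus strand and holds 2 cores that face each other, 66 to 59 and 47 to 40 bases before the start. The Chac1 stretch is chr2:119351038-119351067 on the plus strand, with the core in reverse orientation 193 to 186 bases before the start.
Asns: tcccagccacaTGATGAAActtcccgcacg
Slc7a11: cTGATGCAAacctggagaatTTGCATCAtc
Chac1: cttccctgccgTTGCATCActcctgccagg
A variant core, TGACGNAA, was present in 1 of the 10 genes, Chac1, 250 to 243 bases before the start, and in 1.39% of all windows. The cyclic AMP response element TGACGTCA was found in 0 of the 10 and in 1.55% of windows. A match is a description of the letters, and binding was not measured.

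Each library held between 5101413 and 9358820 reads assigned to genes. Over all genes 2 libraries were unlike the rest, WT EV replicate 2 (median correlation with the others 0.963) and Tsc1-null EV replicate 1 (0.942), while the other 4 had 0.98 to 0.982. They are called the divergent libraries below. These 2 also held the fewest reads, 6565182 and 5101413, against at least 8079325 in the rest. Malat1, a noncoding RNA retained in the nucleus, reached 15673 and 30060 in them and at most 2819 in the rest. The lung identity of the samples was clear, with summed levels of 7 alveolar type 2 markers between 21372 and 42667 in every library. None of the 18 marker lists held a gene that passed the test between groups, which called 0% of all 14159 tested genes. Summed erythroid markers were lower in every Tsc1-null EV lung (2472 to 4919) than in any WT EV lung (5725 to 6967). Of 8 ciliated markers 4 did not overlap between groups, all higher (6.86% of all tested genes). Of 5 mesothelial markers 2 did not overlap, both lower (6.22%). Whether cell make-up differed was not tested. Of the genes that tie the study to mTORC1, Tsc1, Tsc2, Mtor and Rheb, 0 of 4 passed. As 0% of all tested genes passed, this count does not show that they were unchanged.

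None of the 10 genes differed between the groups by the test across all genes (limma, Benjamini-Hochberg adjusted p from 0.721 to 0.983). The test called 0% of the 14159 genes it covered, all 10 passed its filter on low values, and 0 of the 10 had an unadjusted p under 0.05, against 6.57% of all tested genes. Levels are in TMM-normalized CPM, and differences are log2 folds of value + 1 ± SE, positive where Tsc1-null EV lungs were higher. With weights estimated for each library, limma called 7.42% of all genes and 0 of the 10. The weights were 4.19 for WT EV replicate 3, 3.95 for Tsc1-null EV replicate 2 and at most 0.93 for the others. In that run 1 library of each group thus carried most of the weight. By sign 6 of the 10 were above 0 and 4 below, where 47.3% and 52.7% of all tested genes lay. The median of the 10 was 0.08, beside -0.02 over all tested genes. The median distance from 0 in either direction was 0.18 for the 10 and 0.17 for all tested genes. Psat1 was the 1 gene of the 10 whose groups did not overlap, on the higher side, where 6.86% of all tested genes lay, and 0 of the 10 did so on the lower side, where 6.22% lay. For 8 of the 10 the 95% confidence interval of the log2 fold lay within 1 either way, which is a 2-fold change on the value + 1 scale, and the intervals of Psat1 and Chac1 reached past it.

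Per kilobase of exon (GENCODE M21 exon union, build mm10), the 10 genes spanned a wide range of levels, and Atf4 led in every library. Atf4 was at 87.3 ± 11.3 CPM per kilobase (SD, n = 6 libraries), from 68.6 to 99.4. Ddit3 at 13.8 ± 3.96, Asns at 11.0 ± 1.46 and Shmt2 at 8.03 ± 1.03 followed, each overlapping its neighbour in this order. A gap came next, since the lowest Shmt2 value, 6.81, was above the highest of Trib3, 4.01. Trib3, Phgdh, Psat1 and Chac1 at means of 3.21, 3.0, 2.98 and 1.87, and then Mthfd2 at 1.16 ± 0.191, overlapped from neighbour to neighbour. Slc7a11 was the lowest at 0.201 ± 0.0492, with its highest library at 0.263 against 0.92 in the lowest Mthfd2 library. This place depends on its exon union of 13.92 kilobases, against 1.64 to 4.25 for the other genes. In CPM not divided by length, Slc7a11 (1.76 to 3.67) overlapped Chac1 (1.4 to 5.14) and Mthfd2 (3.21 to 4.85). Reads behind a single value ran from 7 for Chac1 in Tsc1-null EV replicate 1 to 1831 for Atf4, so the levels of Chac1 (7 to 35 reads), Slc7a11 (12 to 34) and Mthfd2 (16 to 45) carry the most counting error.

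**Figure D1:**
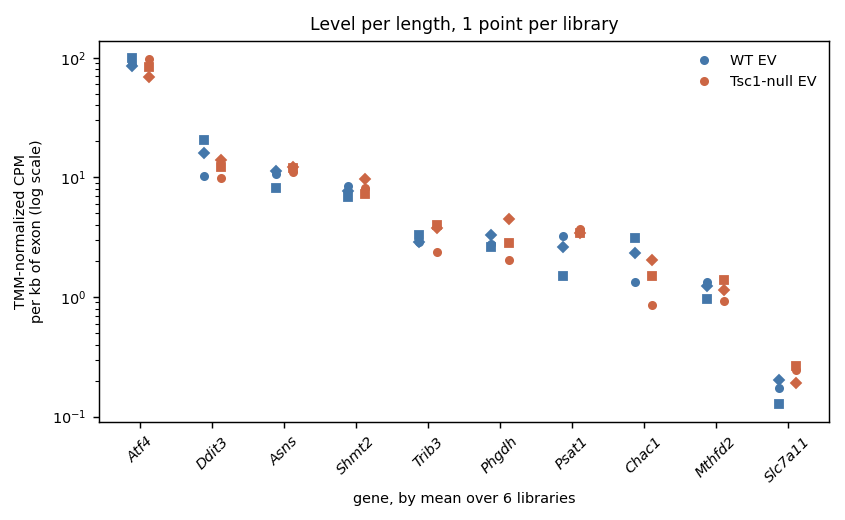
Level of each gene per kilobase of exon, in TMM-normalized CPM per kilobase on a log axis, with 1 point per library (circle, square and diamond for replicates 1, 2 and 3) and genes ordered by their mean over 6 libraries. Atf4 stands alone at the top (68.6 to 99.4) and Slc7a11 alone at the bottom (highest library 0.263), and the WT EV and Tsc1-null EV points overlap for every gene but Psat1.

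Of the regulators, Atf4, Ddit3 and Trib3 all had overlapping groups. Atf4 (chromosome 15, 80255184 to 80257541, plus strand) stood at 209.1, 234.4 and 200.7 in the WT EV lungs and at 231.5, 197.4 and 161.7 in the Tsc1-null EV lungs. The highest value was in WT EV replicate 2 and the lowest in Tsc1-null EV replicate 3, and the groups overlapped. The means were 214.7 ± 17.5 and 196.9 ± 34.9 (SD, n = 3 each), a log2 fold of -0.14 ± 0.17 (limma adjusted p = 0.897). Its 95% confidence interval ran from -0.52 to 0.25. The value was -0.26 when Tsc1-null EV replicate 1 was left out and -0.07 when WT EV replicate 2 was. Without Tsc1-null EV replicate 3, the lowest library, it was -0.0.

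Ddit3 encodes CHOP, a transcription factor that ATF4 induces and that promotes cell death under prolonged stress. It spans 127290774 to 127296288 of chromosome 10, plus strand, and 68 of its 1713 exon bases are also exon of Mars on the opposite strand. Its levels were 17.6, 35.0 and 27.4 with WT EV and 17.0, 21.0 and 24.1 with Tsc1-null EV. WT EV replicate 2 was the highest library, while WT EV replicate 1 lay beside the lowest Tsc1-null EV library. The log2 fold was -0.31 ± 0.26 (limma adjusted p = 0.816). Leaving out WT EV replicate 1 gave -0.57, leaving out WT EV replicate 2 gave -0.09, and it became 0.03 without the divergent libraries.

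Trib3, a pseudokinase that is induced by ATF4 and CHOP and holds their activity back, stood at 6.1, 7.05 and 6.17 with WT EV and at 5.01, 8.52 and 8.06 with Tsc1-null EV (chromosome 2, 152337422 to 152344032, minus strand). The Tsc1-null EV libraries lay on both sides of the 3 WT EV libraries. The log2 fold was 0.11 ± 0.23 (limma adjusted p = 0.945), and 0.38 without the divergent libraries. The median log2 fold of these 3 regulators was -0.14.

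Of the genes for amino acid supply and cystine use, Asns and Slc7a11 had log2 folds above 0 and Chac1 below, each with overlapping groups. Asns makes asparagine and is a standard readout of ATF4 (chromosome 6, 7675169 to 7693254, minus strand). It stood at 29.3, 22.5 and 31.2 in WT EV lungs and 30.5, 32.8 and 33.7 in Tsc1-null EV lungs. The low library was WT EV replicate 2, and WT EV replicate 3 lay above Tsc1-null EV replicate 1, so the groups overlapped. The log2 fold was 0.23 ± 0.17 (limma adjusted p = 0.796), with a 95% confidence interval from -0.16 to 0.62. It was 0.09 without WT EV replicate 2 and 0.13 without the divergent libraries.

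Slc7a11 encodes xCT, the transporter that brings cystine into cells in exchange for glutamate, and its promoter holds the facing pair of cores printed above (chromosome 3, 49892526 to 50443614, minus strand). Its levels were 2.44, 1.76 and 2.84 with WT EV and 3.41, 3.67 and 2.65 with Tsc1-null EV. Tsc1-null EV replicate 3 lay below WT EV replicate 3, and the other 2 Tsc1-null EV libraries lay above all WT EV libraries. The log2 fold was 0.35 ± 0.25 (limma adjusted p = 0.783), and 0.18 without the divergent libraries.

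Chac1 breaks down glutathione and is a target of ATF4 and CHOP (chromosome 2, 119351229 to 119354381, plus strand). It stood at 2.2, 5.14 and 3.82 with WT EV and at 1.4, 2.48 and 3.31 with Tsc1-null EV. As for Ddit3, WT EV replicate 2 was highest and WT EV replicate 1 lay among the Tsc1-null EV libraries. The log2 fold of -0.46 ± 0.33 (limma adjusted p = 0.785) was the lowest of the 10, with a 95% confidence interval from -1.22 to 0.29. Leaving out WT EV replicate 1 gave -0.72, leaving out Tsc1-null EV replicate 1 gave -0.23, and leaving out the divergent libraries gave -0.02.

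**Figure D2:**
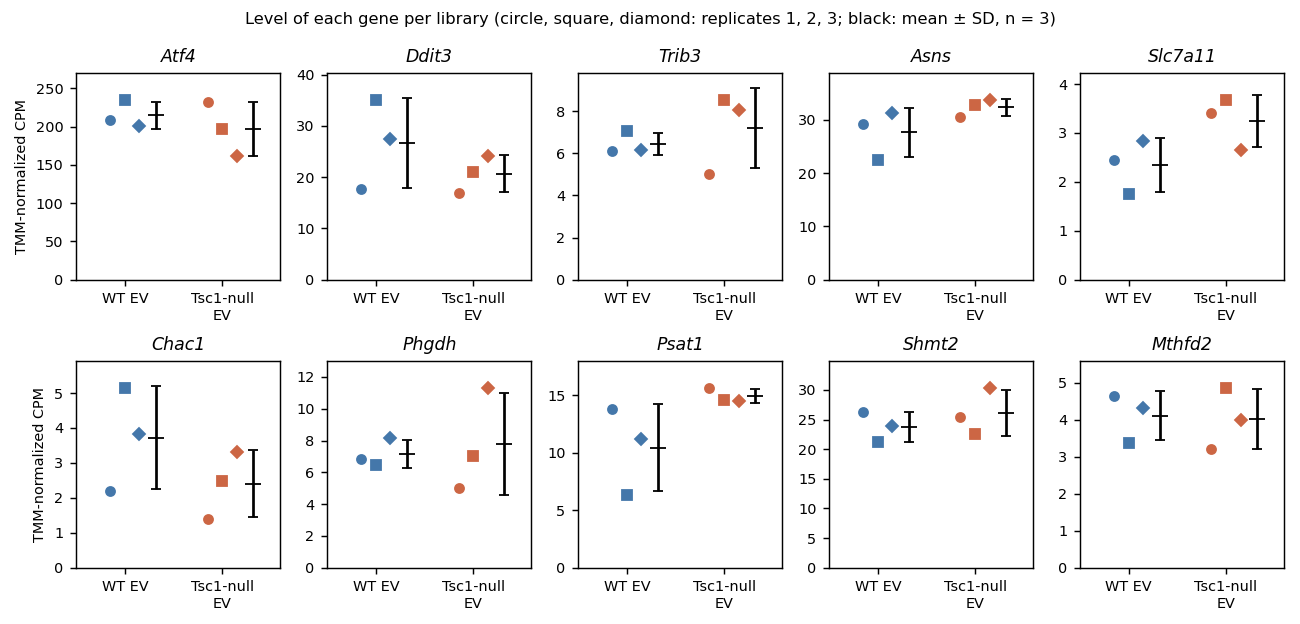
Level of each of the 10 genes in every library, in TMM-normalized CPM on linear axes from 0, with replicates 1, 2 and 3 as circle, square and diamond and the mean ± SD (n = 3) in black. Only Psat1 has its 3 Tsc1-null EV lungs (14.5 to 15.6) above its 3 WT EV lungs (6.32 to 13.8), and WT EV replicate 2 is the highest point for Atf4, Ddit3 and Chac1.

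Serine is made from a glycolytic intermediate by PHGDH, PSAT1 and PSPH. SHMT2 then passes its carbon to folate inside mitochondria, where MTHFD2 acts on the folate-bound carbon. Of the 4 of these enzymes among the 10 genes, Psat1 was the one farthest from 0, and the median log2 fold of the 4 was 0.09. Psat1, the transaminase of the pathway (chromosome 19, 15904678 to 15947337, minus strand), stood at 13.8, 6.32 and 11.2 in WT EV lungs. In Tsc1-null EV lungs it stood at 15.6, 14.6 and 14.5. The Tsc1-null EV libraries lay close together, and the gap to WT EV replicate 1 was small beside the spread of the WT EV libraries. The means were 10.4 ± 3.79 and 14.9 ± 0.649 (SD, n = 3 each), and the log2 fold was 0.53 ± 0.26, with a 95% confidence interval from -0.07 to 1.13. The difference did not pass (limma unadjusted p = 0.075, adjusted p = 0.721).

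Leaving out WT EV replicate 2 lowered the log2 fold of Psat1 to 0.24, leaving out WT EV replicate 1 raised it to 0.75, and without both divergent libraries it was 0.21. The summed level of 8 markers of dividing cells was 122.0, 25.0 and 62.7 with WT EV and 115.3, 131.9 and 119.0 with Tsc1-null EV. WT EV replicate 2 was thus lowest and WT EV replicate 1 highest of its group in both, and 2 of the 8 markers had groups that did not overlap, both higher (6.86% of all tested genes). The same order within the WT EV lungs was seen in 5 of the 18 marker lists, the others being those of alveolar type 2 cells, alveolar macrophages, monocytes and macrophages, and natural killer cells. The part of these cells in the Psat1 values was not tested. In lung tissue as a whole, more cells of a type and more RNA per cell cannot be told apart, nor can reads of the rat ELT3 cells be told from mouse reads.

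Phgdh, the first and committed enzyme of serine synthesis, stood at 6.83, 6.47 and 8.14 with WT EV and at 5.01, 7.01 and 11.3 with Tsc1-null EV (chromosome 3, 98313170 to 98339990, minus strand). The Tsc1-null EV libraries held both the lowest and the highest value. The log2 fold was 0.05 ± 0.28 (limma adjusted p = 0.981), and -0.23 without Tsc1-null EV replicate 3. Of the 50-base words of its transcripts 47.78% also occur in transcripts of other genes, so its level is uncertain, and for the other 9 genes this share was at most 1.25%.

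Shmt2, the mitochondrial serine hydroxymethyltransferase that splits serine into glycine and a folate-bound carbon, stood at 26.3, 21.2 and 23.9 with WT EV and at 25.5, 22.6 and 30.3 with Tsc1-null EV (chromosome 10, 127517123 to 127522444, minus strand). The groups overlapped, and the log2 fold was 0.12 ± 0.17 (limma adjusted p = 0.909), or 0.02 to 0.22 without Tsc1-null EV replicate 3 or 2. Mthfd2, the mitochondrial folate enzyme known for low levels in adult tissue and high levels in dividing cells, stood at 4.63, 3.38 and 4.32 with WT EV and at 3.21, 4.85 and 3.98 with Tsc1-null EV (chromosome 6, 83305691 to 83325908, minus strand). It was the gene nearest to 0, with a log2 fold of -0.03 ± 0.23 and a 95% confidence interval from -0.56 to 0.5 (limma adjusted p = 0.983).

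**Figure D3:**
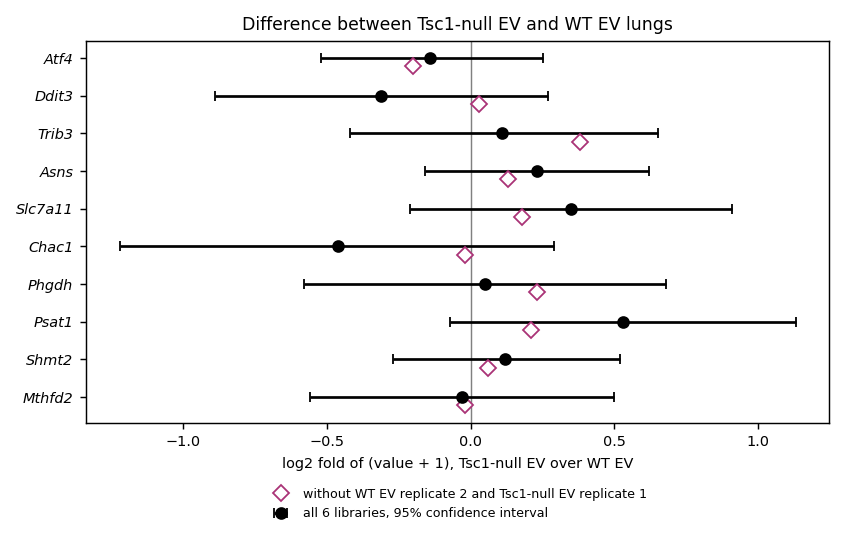
Log2 fold of value + 1 (positive where Tsc1-null EV lungs were higher) for each of the 10 genes (black points with 95% confidence intervals, 3 libraries a group), and the same without the divergent libraries (open diamonds, 2 libraries a group). Every interval includes 0, and the values of Psat1, Chac1 and Ddit3 move from 0.53, -0.46 and -0.31 to 0.21, -0.02 and 0.03 without those libraries.

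The 10 genes did not move as a block across libraries. WT EV replicate 2 held the highest value of Atf4, Ddit3 and Chac1 and at the same time the lowest value of Asns, Psat1, Shmt2 and Slc7a11. Tsc1-null EV replicate 1 held the lowest value of Ddit3, Trib3, Chac1, Phgdh and Mthfd2 and the highest of Psat1. Together these libraries, the same that diverged over all genes, held the lowest value of 9 of the 10 genes and the highest of 4. How often they held the extremes over all tested genes was not counted, so this is not shown to be particular to the 10. Ddit3 and Chac1 had the same order over all 6 libraries, with deviations from the WT EV mean of -0.52, 0.43 and 0.09 for Ddit3 and -0.51, 0.43 and 0.08 for Chac1 in WT EV replicates 1, 2 and 3. In Tsc1-null EV replicates 1, 2 and 3 the deviations were -0.56, -0.28 and -0.09 for Ddit3 and -0.92, -0.39 and -0.08 for Chac1. Of the 14159 tested genes 58 (0.41%) had this order, which was looked for after the values were seen, and 1 gene of the further pathway lists was among them, the ER cochaperone Sdf2l1. The median deviation of the 10 genes per library was 0.01, -0.14 and 0.09 with WT EV and -0.09, 0.09 and 0.21 with Tsc1-null EV, with overlap between the groups.

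**Figure D4:**
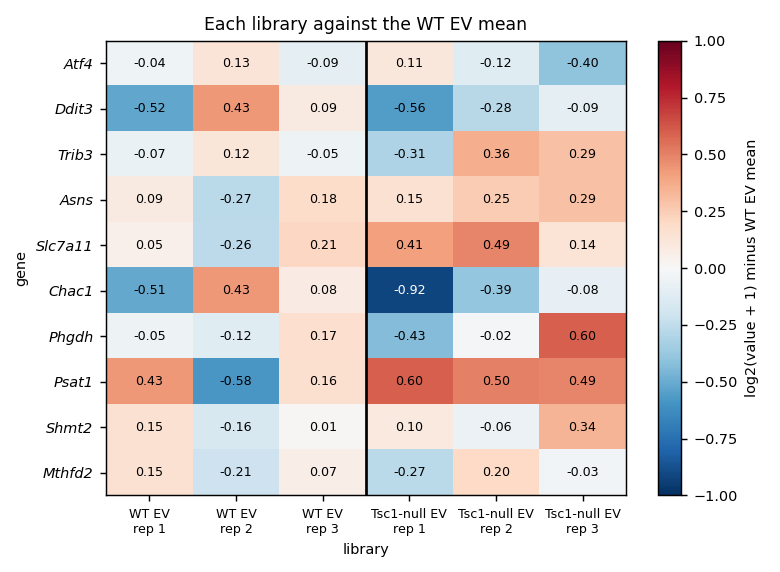
Deviation of log2(value + 1) in each library from the WT EV mean of the same gene, for the 10 genes (rows) and the 6 libraries (columns), with blue below and red above the mean. WT EV replicate 2 is red for Atf4, Ddit3, Trib3 and Chac1 and blue for Asns, Slc7a11 and the 4 serine and folate enzymes, and the lowest cell is Chac1 in Tsc1-null EV replicate 1 at -0.92.

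Further genes of the pathway were read from 6 lists, of which 116 of 121 genes were tested and 0 were called in either direction. With weights estimated for each library 10 of the 116 were called, beside 7.42% of all tested genes. Among the 18 genes that control eIF2 or code for partner factors of ATF4, 11 were above 0 and 7 below (47.3% and 52.7% of all tested genes). Their median log2 fold was 0.04, with 2 without overlap on the higher side and 1 on the lower (6.86% and 6.22% of all tested genes). Cebpb, a bZIP factor that pairs with ATF4, stood at 117.6, 108.8 and 116.1 with WT EV and 187.8, 160.7 and 175.4 with Tsc1-null EV. Its log2 fold was 0.61 ± 0.14 (limma unadjusted p = 0.00173, adjusted p = 0.721). Of all tested genes 6.57% had an unadjusted p under 0.05. The groups of Cebpb lay well apart, with little spread within each. Its log2 fold was 0.52 without the divergent libraries, and 0.55 to 0.67 with 1 library left out. Atf5, an ATF4 target and itself a stress factor, lay the other way at 145.9, 273.4 and 160.9 against 100.6, 141.9 and 135.4 (log2 fold -0.57 ± 0.25, limma adjusted p = 0.721). As with Ddit3 and Chac1, its highest library was WT EV replicate 2 and its lowest Tsc1-null EV replicate 1, and the log2 fold was -0.3 without the former and -0.14 without both. Eif2b2, a subunit of the exchange factor that recharges eIF2, and Nfe2l2, which encodes NRF2 and was the most abundant of the list, had log2 folds of 0.31 ± 0.18 and 0.3 ± 0.23 with overlapping groups. Eif2b2 ranged from 0.18 without Tsc1-null EV replicate 3 to 0.44 without Tsc1-null EV replicate 1, and was 0.4 without the divergent libraries. Nfe2l2 ranged from 0.14 without Tsc1-null EV replicate 1 to 0.51 without WT EV replicate 1, with 0.0 without the divergent libraries.

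Of 30 further ATF4 targets 27 were tested, with 21 above 0, 6 below and a median of 0.15. Of all tested genes 47.3% lay above 0 and 52.7% below, and the count of signs in the list was not tested. Without overlap were 8 of the 27 on the higher side, where 6.86% of all tested genes lay, and 1 on the lower, where 6.22% lay. Slc1a4, a transporter of serine, alanine and other neutral amino acids, stood at 57.1, 44.4 and 48.7 with WT EV and at 81.6, 67.7 and 59.7 with Tsc1-null EV (log2 fold 0.46 ± 0.17, limma adjusted p = 0.721). All 3 Tsc1-null EV libraries lay above the WT EV libraries. Cbs, which condenses serine with homocysteine, stood at 4.76, 4.41 and 4.57 against 15.6, 8.63 and 5.3 (log2 fold 0.85 ± 0.33, limma adjusted p = 0.721), with the highest value in Tsc1-null EV replicate 1. Without that library the log2 fold of Cbs was 0.48, and without both divergent libraries it was 0.46 for Cbs and 0.26 for Slc1a4. Slc7a5, the LAT1 transporter of large neutral amino acids, stood at 3.42, 3.53 and 3.82 against 5.21, 6.47 and 4.97 (log2 fold 0.51 ± 0.21, limma adjusted p = 0.721). The log2 fold of Slc7a5 was 0.53 without the divergent libraries. Sqstm1, an autophagy receptor and the most abundant of the list, had a log2 fold of 0.16 ± 0.14 (0.1 without WT EV replicate 2).

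The 20 cytosolic aminoacyl-tRNA synthetases, which load amino acids onto tRNAs and include many ATF4 targets, had 16 members above 0, 4 below and a median of 0.09. Above and below 0 lay 47.3% and 52.7% of all tested genes, and the count of signs in the list was not tested. Tars, for threonine, stood at 46.0, 36.9 and 38.2 with WT EV and at 58.7, 60.4 and 50.0 with Tsc1-null EV (log2 fold 0.47 ± 0.16, limma adjusted p = 0.721), and Vars, for valine, had a log2 fold of 0.42 ± 0.17. These were the 2 of the 20 without overlap, both higher, a count near the 6.86% of all tested genes. Without the divergent libraries the log2 folds of Tars and Vars were 0.38 and 0.41. Qars and Eprs, the latter the most abundant, overlapped, with log2 folds of 0.33 ± 0.16 and 0.04 ± 0.13.

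Of 23 other serine, glycine and folate genes 21 were tested, with 10 above 0 and 11 below (47.3% and 52.7% of all tested genes). Their median was -0.01, with 4 without overlap on the higher side (6.86% of all tested genes) and 0 on the lower (6.22%). Shmt1, the cytosolic counterpart of Shmt2, stood at 4.15, 3.23 and 4.69 with WT EV and at 4.81, 8.09 and 6.74 with Tsc1-null EV (log2 fold 0.57 ± 0.25, limma adjusted p = 0.721). Aldh1l1, which removes one-carbon units from cytosolic folate, stood at 12.1, 9.85 and 14.8 against 25.5, 16.0 and 18.1 (log2 fold 0.65 ± 0.23, limma adjusted p = 0.721), and its log2 fold was 0.32 without the divergent libraries. Sfxn1, the serine carrier of mitochondria, had a log2 fold of 0.38 ± 0.17, also without overlap (0.25 without Tsc1-null EV replicate 1). Tyms, thymidylate synthase, followed the divergent libraries, at 340.5 and 413.4 in them against 72.7 to 107.8 in the other 4. Psph, the enzyme after Psat1, stood at 15.1, 18.7 and 20.4 against 15.4, 19.4 and 15.5; it was chosen after its values were seen because it completes the serine pathway.

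Slc7a11 is also a target of NRF2, so 12 genes of glutathione and NRF2 were read beside it. Of these 10 were above 0 and 2 below (47.3% and 52.7% of all tested genes), with a median of 0.25. Without overlap were 2 on the higher side, Txnrd1 and Nqo1, and 0 on the lower (6.86% and 6.22% of all tested genes). Txnrd1, a thioredoxin reductase, stood at 48.8, 50.3 and 45.9 with WT EV and at 82.2, 66.1 and 55.0 with Tsc1-null EV (log2 fold 0.46 ± 0.17, limma adjusted p = 0.721). Gsr and Gss, of glutathione reduction and synthesis, and Prdx1, the most abundant, overlapped, with log2 folds of 0.37 ± 0.2, 0.33 ± 0.18 and 0.31 ± 0.18. Without Tsc1-null EV replicate 1 Txnrd1 was at 0.31, Gsr at 0.23 and Gss at 0.19. With both divergent libraries left out they were at 0.34, 0.11 and 0.18. The median of the list was 0.12 without the divergent libraries. The IRE1 and ATF6 branches of the unfolded protein response, which act beside the ATF4 branch, had 5 of 18 genes above 0 and 13 below. Their median was -0.05, and 47.3% and 52.7% of all tested genes lay above and below 0. Sdf2l1, an ER cochaperone, stood at 14.9, 27.3 and 26.4 against 10.8, 16.1 and 20.3 (log2 fold -0.51 ± 0.29, limma adjusted p = 0.743). Leaving out WT EV replicate 1 gave a log2 fold of -0.78, leaving out Tsc1-null EV replicate 1 gave -0.28, and leaving out the divergent libraries gave -0.13. Syvn1, an ER ubiquitin ligase, and Dnajb9, an ER cochaperone, did not overlap on the lower side (6.22% of all tested genes). Their log2 folds were -0.32 ± 0.16 and -0.24 ± 0.16. Syvn1 was at -0.21 without Tsc1-null EV replicate 1 and at -0.23 without the divergent libraries. Dnajb9 was at -0.12 without WT EV replicate 1 and at -0.35 without the divergent libraries. Hsp90b1, the most abundant, was at -0.06 ± 0.18.

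**Figure D5:**
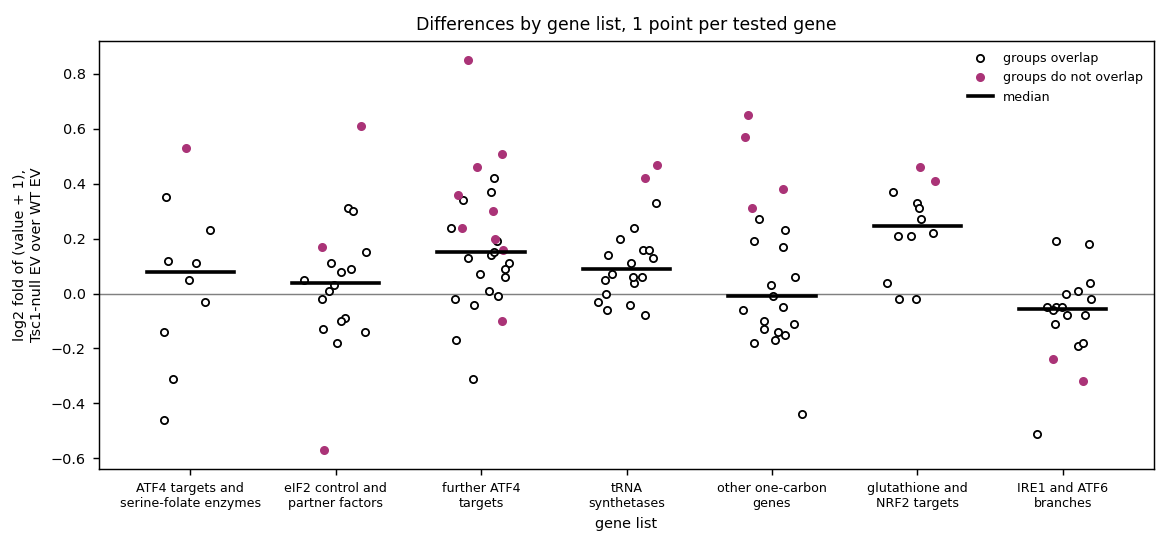
Log2 fold of value + 1 (positive where Tsc1-null EV lungs were higher) for every tested gene of the 10 described genes and of 6 further pathway lists, with filled points where the 3 libraries of each group do not overlap and a bar at each list's median. The medians run from -0.05 for the IRE1 and ATF6 branches to 0.25 for glutathione and NRF2 targets, with 0.08 for the 10 genes.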

How the data were processed

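Lung RNA was read from both fragment ends by Illumina sequencing, per the labels' protocols. What the authors deposited is 1 table of 24054 genes with a TMM-normalized signal for each of 6 libraries, taken here as CPM. The submitters' processing notes name Bowtie2 2.1.0, RSEM 1.2.15, edgeR and mm10, with no role for any, and the use of strand is not given in the sources used here. In each library all values were whole multiples of a single step (100% within 0.001 of a whole number), so whole reads were recovered.

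Groups came from the treatment label. The test used limma 3.58.1 (R 4.3.3) on log2(value + 1) of the 14159 genes whose mean over the 6 libraries was at least 1, two-sided, with an intensity trend and Benjamini-Hochberg adjustment over all of them (threshold 0.05). Folds on this scale understate changes of low genes. The adjustment can give genes of unequal unadjusted p the same adjusted p, as with 0.721. The labels number the samples separately and name no cage, day or batch, so p-values measure the spread between these libraries (chi-square per degree of freedom 9.21 to 58.55 within groups, above counting noise). The 10 genes and the lists were chosen with earlier results of these data known. From each list up to 3 genes with the smallest unadjusted p and the most abundant gene were named. Alternatives were other pseudocounts (0.5 and 0.1), filters (none and 5) and scalings, sample weights, edgeR 4.0.16 and DESeq2 1.42.0 on recovered reads, and libraries left out. The plain limma, edgeR and DESeq2 fits were tested on simulated counts that held no divergent libraries.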

Additional observations from a re-analysis of the deposited data

How the results depend on the processing

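None of the 10 genes passed under any alternative run that gave it an adjusted p (smallest 0.125, Trib3 with limma sample weights). Their median log2 fold stayed between 0.01 and 0.2 (without Tsc1-null EV replicates 3 and 1). Over all genes the count called was 0 in limma and edgeR (930 and 966 at an unadjusted p under 0.05), 11 with DESeq2, 1050 with sample weights of 0.21 to 4.19, 25 without the 2 divergent libraries, and 0 to 2 with 1 library left out. Of the pathway list genes, sample weights called 10, where they called 7.42% of all genes, and the other alternatives called 0. The 10 included Cebpb, Tars, Txnrd1, Shmt1, Cbs, Slc1a4 and Slc7a5 (limma adjusted p 0.0179 to 0.0412 with sample weights). Signs turned without the divergent libraries for Ddit3 (0.03), and with sample weights for Phgdh (-0.05), Shmt2 (-0.02), Mthfd2 (0.09), Eprs (-0.03) and Hsp90b1 (0.03). With 1 library left out, the log2 fold ran from -0.01 to 0.32 for Trib3, -0.23 to 0.29 for Phgdh, -0.15 to 0.09 for Mthfd2, -0.9 to 0.47 for Tyms and -0.09 to 0.01 for Hsp90b1. Tyms was at 0.09 in edgeR and 0.1 in DESeq2. The cause of these changes was not tested. Chac1, Mthfd2, Slc7a11 and Slc7a5 could not be fitted at a filter of 5, and few reads limit their precision. DESeq2 gave no adjusted p for Chac1 and Slc7a11. No paired analysis was possible because the sample numbers in the labels are unique to each library.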
